A study of Mus musculus with 3 samples.

Results

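The AP-1 transcription factors described here are 8 genes, Fos, Fosb, Fosl2, Jun, Junb, Jund, Atf3 and Batf, of the 27088 genes in the deposited table. They were found by gene name, and each name matched 1 row of the table. The list was chosen by family membership after the expression values (FPKM and counts) of these same libraries had been seen, so the values below are descriptions, with no test.

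Splenic B cells were compared between mice with allergic rhinitis that received either PBS or SJMHE1, a small peptide from the blood fluke Schistosoma japonicum. All were female BALB/c mice, 6 weeks old at the start and 13 weeks old in the sample labels. In the PBS and SJMHE1 groups alike, OVA (ovalbumin, the allergen, 10 μg) with 2 mg of Al(OH)3 was given into the peritoneum on days 0, 7 and 14. OVA (100 μg) was then given into the nose from day 21 to day 35, except on the day between days 27 and 29, and the spleens were taken on day 36. Under the skin, on days 0, 14 and 28, the PBS group received PBS, and the SJMHE1 group received 10 μg of the peptide emulsified in incomplete Freund's adjuvant, an oil. The PBS injections held no such adjuvant, so the peptide and its adjuvant cannot be told apart. B cells were sorted from the spleens, and the RNA of 3 mice was mixed, so each group is 1 library and the spread between mice is not known. The third library of the series, from normal mice (Control), was not analysed here.

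AP-1 is a dimer of proteins that share a basic region, which binds DNA, and a leucine zipper, which holds the partners together. Fos proteins pair with Jun proteins and not with each other, while Jun proteins also pair among themselves, and Atf3 and Batf can also take a Jun protein as partner. Most of these genes are immediate early genes, transcribed within minutes of a signal through MAP kinases and silenced soon after, which in B cells includes the antigen receptor, CD40 and Toll-like receptors. Cell stress and the handling of tissue are also known to switch them on.

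Fos and Jun had the highest SJMHE1 to PBS ratios of the members, and Atf3 and Fosl2 the lowest. The stretch of 250 bases before the start of each of these 4 genes is shown from RefSeq (GRCm38.p6), 5′ to 3′ on the strand of the gene, because these are the members whose levels differed most. The windows are chr12:85473640-85473889 on the plus strand for Fos, chr4:95052223-95052472 on the minus strand for Jun, chr1:191183334-191183583 on the minus strand for Atf3 and chr5:32136222-32136471 on the plus strand for Fosl2. Capitals mark the letters of a motif that was found there, each of which is named in the next paragraph.
Fos: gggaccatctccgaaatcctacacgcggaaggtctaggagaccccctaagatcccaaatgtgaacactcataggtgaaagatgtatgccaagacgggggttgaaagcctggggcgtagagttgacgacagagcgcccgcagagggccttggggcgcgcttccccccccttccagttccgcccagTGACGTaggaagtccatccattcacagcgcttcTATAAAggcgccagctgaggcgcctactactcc
Jun: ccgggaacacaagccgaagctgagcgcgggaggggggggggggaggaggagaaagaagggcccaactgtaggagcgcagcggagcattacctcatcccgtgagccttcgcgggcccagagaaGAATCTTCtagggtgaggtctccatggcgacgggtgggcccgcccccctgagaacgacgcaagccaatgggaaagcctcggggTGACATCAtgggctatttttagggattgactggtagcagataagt
Atf3: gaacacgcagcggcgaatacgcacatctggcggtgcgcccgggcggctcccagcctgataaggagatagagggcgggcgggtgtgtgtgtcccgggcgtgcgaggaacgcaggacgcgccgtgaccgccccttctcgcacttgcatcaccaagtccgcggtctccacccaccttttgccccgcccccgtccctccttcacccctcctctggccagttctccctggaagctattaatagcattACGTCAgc
Fosl2: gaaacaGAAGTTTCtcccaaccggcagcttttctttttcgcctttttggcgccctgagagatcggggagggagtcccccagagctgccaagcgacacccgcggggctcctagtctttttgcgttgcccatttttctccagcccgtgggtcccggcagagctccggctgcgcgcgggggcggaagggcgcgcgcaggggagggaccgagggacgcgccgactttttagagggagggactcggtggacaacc

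Each motif was searched on both strands. The core of the cyclic AMP response element (CRE), TGACGT, lay 66 to 61 bases before the start of Fos and, on the other strand, 8 to 3 bases before the start of Atf3. It also lay in the window of Batf, and 6.47% of all 32851 promoter windows of this length held it. The TATA box, TATAAA, lay 33 to 28 bases before the start of Fos and is found in 12.4% of windows. The window of Jun held TGACATCA, a form of the AP-1 site known from this promoter, 45 to 38 bases before the start, as did 2.93% of windows. Letters of the kind GAANNTTC, as in heat shock elements, were found in the windows of Jun and Fosl2 and in 6.69% of all windows. The full CRE, TGACGTCA, the AP-1 site TGACTCA and the CArG box were in none of the 8 members' windows, against 1.55%, 4.46% and 1.47% of all windows. The TGACGT core overlaps the full CRE by its letters. These matches are descriptions of letters in the windows. The RefSeq start of Atf3 lies 34706 bases inside the gene as the deposited table draws it, and that of Fosl2 lies 671 bases inside. For Jund the RefSeq start lies 1210 bases before the gene as drawn there. Bases outside the windows were not searched, so a motif absent from a window can lie elsewhere near the gene.

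The levels of the 8 genes lay between 0.65 and 1050 FPKM (fragments per kilobase of transcript and per 1000000 mapped fragments). This scale is meant for comparing genes of different length, and its values depend on the length taken for each gene. Each value is that of a single library, written as after PBS or after SJMHE1. Fos, Fosb, Jun, Junb and Jund were among the most abundant transcripts of the cells in both libraries. By FPKM they ranked between 39 and 63 of the 27088 genes after PBS and between 32 and 73 after SJMHE1. Atf3 was at an intermediate level, and Batf and Fosl2 were low.

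**Figure D1:**
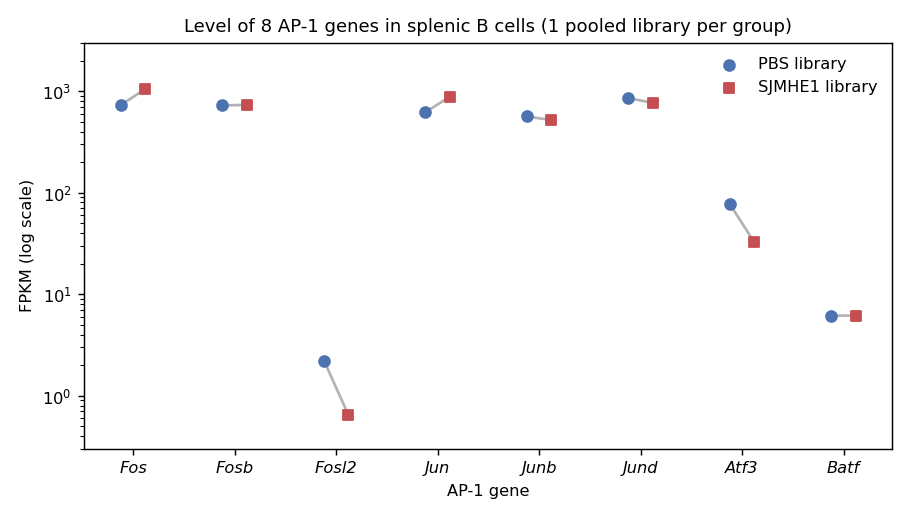
FPKM (log scale) of the 8 AP-1 genes after PBS (circles) and after SJMHE1 (squares), 1 pooled library per group, with a line joining the values of a gene. Fos, Fosb, Jun, Junb and Jund lie between 519 and 1050 FPKM, while Atf3 is at 77.2 and 32.5, Batf at 6.16 and 6.14, and Fosl2 at 2.22 and 0.65.

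Fos, the founding member and the partner of Jun in the classic AP-1 dimer, was at 731 FPKM (94392 counts) after PBS and at 1050 FPKM (143537 counts) after SJMHE1. The SJMHE1 level was 1.44 times the PBS level, and the log2 ratio was 0.52 (95% counting interval 0.51 to 0.53). The intervals were derived from the counts by the Clopper-Pearson method, which is exact, and cover counting error only. Fos (ENSMUSG00000021250) lies on the plus strand of chromosome 12 from 85473890 to 85477273 in mm10, with 4 exons and 380 amino acids in its principal GENCODE M21 transcript.

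Fosb, a relative of Fos that also makes a short form known from chronic stimulation, was at 723 FPKM after PBS and at 733 after SJMHE1, with 247583 and 265775 counts. The levels differed little, with a log2 ratio of 0.020 and an interval from 0.012 to 0.028. Fosb (ENSMUSG00000003545), which spans chromosome 7 from 19302696 to 19310051 on the minus strand, has a principal transcript of 3782 bases against 2108 for Fos, and it took 0.513% of all counts after PBS where Fos took 0.196%. By FPKM, Fos was 1.01 times as abundant as Fosb after PBS and 1.43 times as abundant after SJMHE1. The counts divided by these transcript lengths do not give these ratios and put Fosb above Fos in both libraries. The FPKM therefore rest on other lengths, which are not given in the sources used here. Which of Fos and Fosb is the more abundant depends on the lengths taken.

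Fosl2, which encodes Fra-2, a Fos protein without the strong activation domain of Fos, was the lowest member. It was at 2.22 FPKM (1181 counts) after PBS and at 0.65 FPKM (366 counts) after SJMHE1. The PBS level was 3.42 times the SJMHE1 level, and the log2 ratio was -1.77 (interval -1.95 to -1.60). With 1 added to each FPKM, the ratio was -0.96 and no longer past 1. Fosl2 (ENSMUSG00000029135) lies on the plus strand of chromosome 5 from 32135801 to 32157842.

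Jun, which can form AP-1 alone or with Fos, was at 620 FPKM after PBS and at 880 after SJMHE1, with 108515 and 163112 counts. The SJMHE1 level was 1.42 times the PBS level, and the log2 ratio was 0.51, with an interval (0.49 to 0.52) that overlaps that of Fos. The Fos to Jun ratio was 1.18 after PBS and 1.19 after SJMHE1. Jun (ENSMUSG00000052684) is a gene of 1 exon on chromosome 4 from 95049034 to 95052222, minus strand. The antisense gene Junos overlaps it and had 26 counts after PBS and 14 after SJMHE1.

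Junb, a weaker activator that can restrain Jun, was at 563 FPKM after PBS and at 519 after SJMHE1, with 55888 and 54562 counts and a log2 ratio of -0.12 (interval from -0.13 to -0.10). Jund, the member most evenly present in resting cells of many tissues, was at 854 and 766 FPKM, with 78157 and 74240 counts and a log2 ratio of -0.16 (interval from -0.17 to -0.14). Both were slightly lower after SJMHE1, in contrast to Jun. By FPKM, Jund was the most abundant member after PBS and Fos after SJMHE1, while Fosb had the most counts in both libraries. This order depends on the transcript lengths behind the FPKM. The Jun level was 1.15 times the Jund level after SJMHE1, against 0.726 times after PBS. Junb (ENSMUSG00000052837) and Jund (ENSMUSG00000071076) are genes of 1 exon on chromosome 8, the former on the minus strand from 84976910 to 84978718 and the latter on the plus strand from 70698949 to 70700616. The antisense gene Gm11175, with 380 and 399 counts, overlaps Jund. Whether the counting used strand is not given in the sources used here, so reads of these antisense genes cannot be told apart from those of Jun and Jund.

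Atf3, a stress-induced factor that represses many targets as a homodimer, was at 77.2 FPKM (9128 counts) after PBS and at 32.5 FPKM (4068 counts) after SJMHE1. The PBS level was 2.38 times the SJMHE1 level, and the log2 ratio was -1.25 (interval -1.30 to -1.19). Among the 4143 genes that reached 10 FPKM in both libraries, 0.290% had a log2 ratio as low or lower. Atf3 (ENSMUSG00000026628) spans chromosome 1 from 191170296 to 191218039 on the minus strand.

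Batf, a small factor that lacks an activation domain and works with Jun proteins and Irf4 in class switching of B cells, was at 6.16 FPKM after PBS and at 6.14 after SJMHE1, with 477 and 503 counts. Its log2 ratio was -0.0047 with an interval from -0.19 to 0.18, so at this depth no difference was detectable, and a difference within that interval would not be seen. Batf (ENSMUSG00000034266) lies on the plus strand of chromosome 12 from 85686669 to 85709087, and 209 kb separate it from Fos. Jdp2, another AP-1 gene, lies between them.

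**Figure D2:**
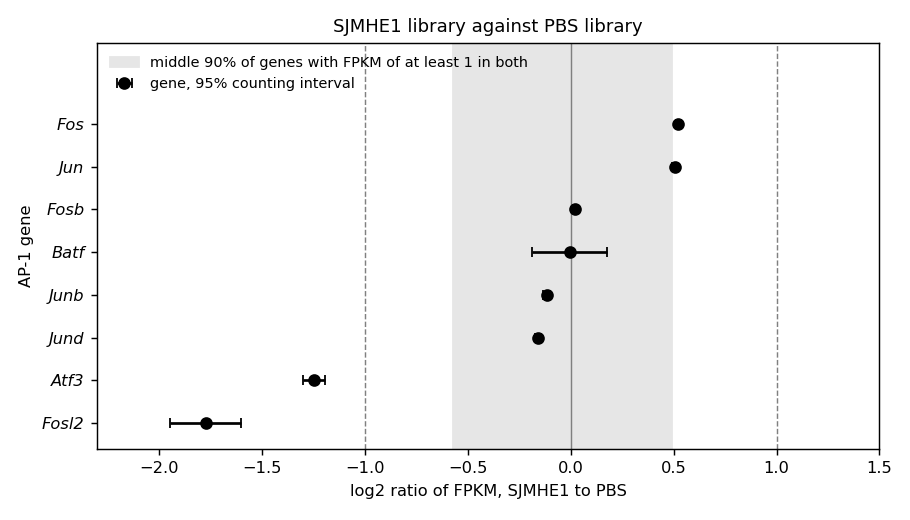
Log2 ratio of FPKM, SJMHE1 to PBS, of each AP-1 gene with its 95% counting interval, with dashed lines at a log2 ratio of 1 in either direction and the middle 90% of the genes at 1 FPKM or more in both libraries shaded. Atf3 and Fosl2 lie below -1, Fos and Jun lie just above the shaded range, which ends at 0.49, and the other 4 genes lie within it.

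All 8 members were among the 12433 genes compared, which reached 1 FPKM in a library and were above 0 in both. Of the 8, 0 were past a log2 ratio of 1 in the SJMHE1 direction, where 2.43% of all genes compared were, and 2 (Atf3 and Fosl2) were past it in the PBS direction, where 3.57% were. With a log2 ratio of 0.5 as the limit, Fos and Jun were past it in the SJMHE1 direction, beside 7.28% of all genes, and Atf3 and Fosl2 in the PBS direction, beside 9.82%. The counting interval of Jun, 0.49 to 0.52, includes 0.5. The median log2 ratio was -0.061 over the members and -0.013 over all genes compared. By log2 ratio, Fos ranked 851 and Jun ranked 890 from the highest, and Fosl2 ranked 153 and Atf3 ranked 301 from the lowest. Among the genes that reached 10 FPKM in both libraries, 2.10% had a log2 ratio at or above that of Fos and 2.24% at or above that of Jun.

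**Figure D3:**
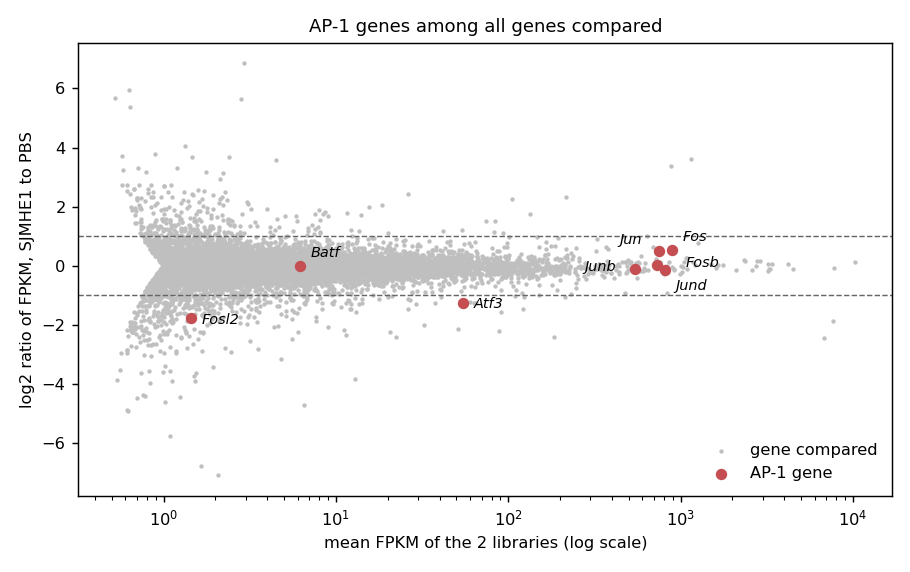
Log2 ratio of FPKM, SJMHE1 to PBS, against the mean FPKM of the 2 libraries (log scale) for the 12433 genes compared (grey), with the 8 AP-1 genes in red. Atf3 lies below the dashed line at -1 at a level where few genes do, while Fosl2 lies at a low level, where the spread of all genes is wide.

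Added together, the members came to 3576 FPKM after PBS and 3988 FPKM after SJMHE1, or 1.23% and 1.38% of all counts. Fos and Jun made up more of the sum after SJMHE1. Fos held 20.4% of the summed FPKM after PBS and 26.3% after SJMHE1, and Jun held 17.3% and 22.1%. The other genes made up less, with Jund at 23.9% and 19.2%, Junb at 15.7% and 13.0%, Fosb at 20.2% and 18.4% and Atf3 at 2.16% and 0.815%. As shares of summed counts, which are not divided by length, Fosb was the largest at 41.6% and 37.6%. It was followed by Jun at 18.2% and 23.1%, Fos at 15.9% and 20.3%, Jund at 13.1% and 10.5% and Junb at 9.39% and 7.73%. Over the subfamilies, the Fos genes summed to 1456 FPKM after PBS and 1784 after SJMHE1, a log2 ratio of 0.29, and the Jun genes to 2036 and 2165, a log2 ratio of 0.089.

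The rest of the AP-1 family was mostly low in level. Of 13 further genes (Fosl1, Jdp2, Batf2, Batf3, Atf2, Atf7 and the Maf genes), 12 were matched by name, and 10 reached 0.1 FPKM in a library and were above 0 in both. Of these, 3 were past a log2 ratio of 1 in the PBS direction, where 9.18% of all 18426 genes at this lower limit were (6.21% were past it in the SJMHE1 direction), and their median was -0.55 against -0.027 over all. Mafk, a small Maf protein without an activation domain, was the most abundant, at 53.8 FPKM after PBS and 35.7 after SJMHE1, a log2 ratio of -0.59. Maff, another small Maf, was at 10.8 and 4.70 FPKM, a log2 ratio of -1.21 (interval -1.34 to -1.08). Atf7, a CRE-binding relative of Atf2, was at 10.6 and 12.3 FPKM. The others past the limit in the PBS direction were near the floor of detection. Fosl1, which encodes Fra-1, had 19 counts after PBS and 8 after SJMHE1, and Mafa had 116 and 43. Batf3, known for its part in dendritic cells and named here after its values were seen, had 28 counts after PBS and 0 after SJMHE1. A count of 0 allows up to 3 counts per library. With 3 in place of the 0, Batf3 was 9.92-fold lower after SJMHE1 on the scale of total counts. The counting error of the 28 is not included, so this value is not a lower bound.

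Among 23 related bZIP factors, which share the basic region and the zipper, 0 were past a log2 ratio of 1 in the SJMHE1 direction and 4 in the PBS direction, beside 6.21% and 9.18% of all genes. Their median was -0.10, and -0.018 with both libraries rescaled to equal FPKM sums. Atf4, the main effector of the integrated stress response, was the most abundant at 169.9 FPKM after PBS and 123.9 after SJMHE1, a log2 ratio of -0.46. Ddit3, a stress gene downstream of Atf4 that encodes CHOP, was at 28.2 and 13.96 FPKM, a log2 ratio of -1.02 whose interval from -1.11 to -0.92 includes -1. Nfil3, which supports NK cell development and class switching to IgE, was at 4.84 and 2.05 FPKM, a log2 ratio of -1.24. The other 2, Cebpa and Hlf, had 158 and 48 counts after PBS and 41 and 12 after SJMHE1.

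The kinases that carry signals to AP-1 differed little by their median. Of 22 genes of the MAP kinase cascades, 1 was past a log2 ratio of 1 in the SJMHE1 direction (6.21% of all genes) and 0 in the PBS direction (9.18%), and the median was -0.052, or 0.031 with equal sums. That gene was Mapk13, a p38 kinase, with 16 counts after PBS and 72 after SJMHE1. The lowest log2 ratio among the 22 was -0.51. Map2k1, which encodes MEK1, was at 42.98 and 51.3 FPKM, and Mapkapk2, the kinase that p38 activates, was at 46.65 and 36.99 FPKM. Of 9 factors known to act at the Fos and Jun promoters, 0 were past the limit in either direction, and their median was -0.14. Their log2 ratios ran from -0.33 to 0.57. Srf, the serum response factor, was at 21.63 FPKM after PBS and 22.03 after SJMHE1, and the MEF2 genes Mef2d and Mef2c were at 52.7 and 42.0 FPKM and at 29.95 and 30.9 FPKM.

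The partners and the turnover of AP-1 had no gene past the limit either. Of 9 partners in lymphocytes, the median log2 ratio was -0.069, and its sign turned with equal sums, to 0.014. Irf4, the partner of Batf at composite sites, was at 136.7 FPKM after PBS and 105.9 after SJMHE1, a log2 ratio of -0.37, and Ets1 was at 126.4 and 120.0 FPKM. The 6 genes of turnover and inhibition, among them the ubiquitin ligase Itch (12.65 and 14.8 FPKM) and Cops5 (9.33 and 8.95 FPKM), a signalosome subunit that binds Jun, had a median of 0.066.

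Of 17 genes reported as AP-1 targets, 15 were matched by name and described. Of these, 1 was past a log2 ratio of 1 in the SJMHE1 direction and 4 in the PBS direction, beside 6.21% and 9.18% of all genes, and the median was -0.67. Vim, an intermediate filament gene, was the most abundant, at 68.2 FPKM after PBS and 37.6 after SJMHE1, a log2 ratio of -0.86, followed by Plaur, the urokinase receptor, at 23.8 and 17.9 FPKM. The chemokine gene Ccl3 was at 9.25 and 3.86 FPKM, a log2 ratio of -1.26. Il2ra, the high-affinity chain of the IL-2 receptor, had 222 and 75 counts, Vegfa had 260 and 136, and Fasl, the death ligand of cytotoxic cells, had 38 and 4. Timp1, the gene in the other direction, had 8 and 16 counts, and its interval from -0.26 to 2.48 includes 0. Many of these genes are also known from T cells, NK cells or myeloid cells.

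Other immediate early genes, which share the kinetics of Fos and Jun, had a median log2 ratio of -0.16 over the 27 described, or -0.074 with equal sums. Past 1 were 0 in the SJMHE1 direction (6.21% of all genes) and 2 in the PBS direction (9.18%), namely Dusp5, a phosphatase of ERK, with a log2 ratio of -1.30 (19.5 and 7.90 FPKM), and Nr4a3, an orphan nuclear receptor, with -1.11 (2.65 and 1.23 FPKM). The most abundant, Klf2 and Zfp36, were at 490.8 and 486.2 FPKM and at 424 and 442 FPKM. Of the 27, 7 had a log2 ratio above 0 and 20 below. Egr1, named after its values were seen, had the highest ratio of the list. It was at 305 and 452 FPKM with a log2 ratio of 0.57.

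**Figure D4:**
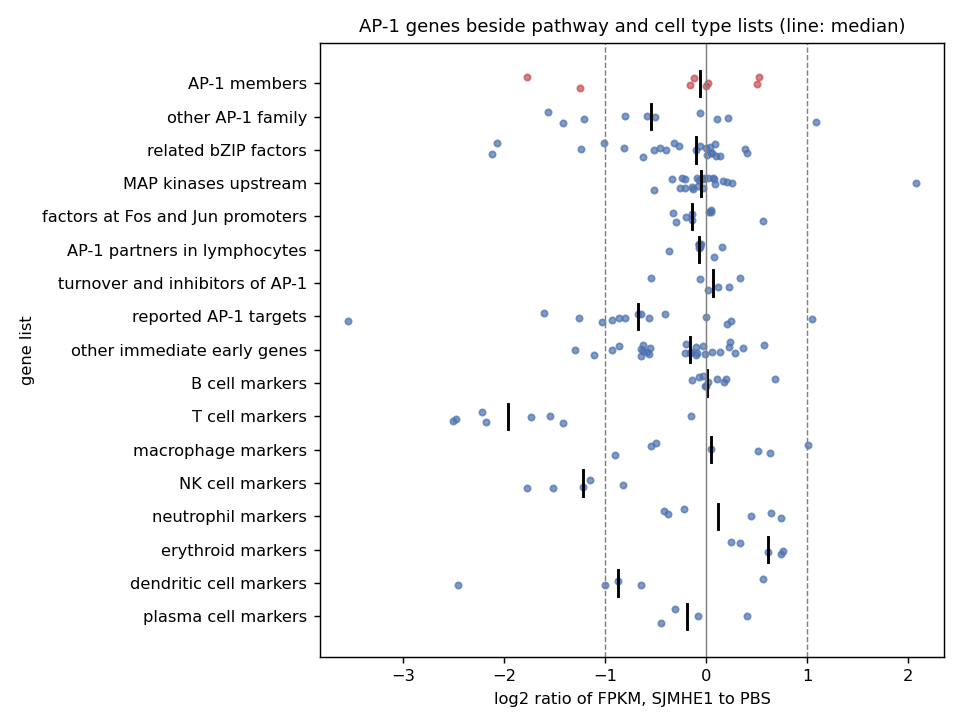
Log2 ratio of FPKM, SJMHE1 to PBS, of each gene (points) in the AP-1 family (red) and in 16 other lists (blue), with the median of each list as a black line and dashed lines at 1 in either direction. The 8 AP-1 genes spread from -1.77 to 0.52, while the T cell and NK cell markers lie below 0 throughout.

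The cells carried the markers of B cells. Cd79a, a chain of the B cell receptor and the most abundant of the 10 B cell markers, was at 835.0 FPKM after PBS and 835.2 after SJMHE1, and the median log2 ratio of the list was 0.0082, with 0 past 1 in either direction. The depth was 48267168 counts after PBS and 51280237 after SJMHE1. Markers of other cells differed between the libraries alongside Atf3 and Fosl2. Of all 18426 genes at the lower limit of 0.1 FPKM, 9.18% were past a log2 ratio of 1 in the PBS direction and 6.21% in the SJMHE1 direction. The T cell list had a median of -1.96 and sums of 52.5 FPKM after PBS and 31.3 after SJMHE1. Of its 8 markers, 7 were past a log2 ratio of 1 in the PBS direction. Lck, a kinase of T cells that B-1 cells also express, was the exception, at 27.9 and 25.2 FPKM, and Trac, the constant region of the T cell receptor, was at 9.42 and 1.69 FPKM. Of 5 NK cell markers, 4 were past it in the same direction, with sums of 11.9 and 4.84 FPKM, and of 5 dendritic cell markers, Itgax and Siglech were, with sums of 7.43 and 3.57 FPKM. Of 7 macrophage markers, C1qb was past it in the SJMHE1 direction (73 and 155 counts), with sums of 25.7 and 20.2 FPKM. The 2 most abundant, Cd68 (12.6 and 6.77 FPKM) and Adgre1 (4.66 and 3.19 FPKM), were lower after SJMHE1. Of the 7, 4 had a log2 ratio above 0 and 3 below. Neutrophil and erythroid markers summed to 283 and 97.2 FPKM after PBS and to 394 and 121.7 after SJMHE1, with 0 past the limit in either list, and the 4 plasma cell markers summed to 420.6 and 353 FPKM, also with 0 past it. No defining marker of these lists was at 0. In a mixed sample, fewer cells of a type and less RNA per cell cannot be told apart. T cells, NK cells and myeloid cells can express Fosl2, Atf3, Maff and Nfil3, and their part in the lower values was not tested.

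Genes with an AP-1 site, TGACTCA, in the 250 bases before their start were described in the same way. Whether AP-1 acts at these sites was not tested. Of 286 such genes compared, 6 were past a log2 ratio of 1 in the SJMHE1 direction and 9 in the PBS direction, 2.10% and 3.15%, where 1.03% and 1.84% of the 8271 genes with a promoter window were, and the medians were -0.047 and -0.0084. Of 265 genes with the full CRE, 2 and 8 were past it, with a median of -0.028. For GAANNTTC the shares in the same order were 2.67% and 2.46%, and for TATAAA 1.74% and 3.01%. For TGACATCA they were 1.25% and 5%, for the CArG box 0.935% and 3.74%, and for TGACGT 0.874% and 1.65%. Shares above those of all genes with a window were thus not particular to TGACTCA.

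The members' ratios were also computed with the data scaled in other ways. Under 8 other scalings and pseudocounts, the log2 ratio of Fos lay between 0.52 and 0.61, that of Jun between 0.50 and 0.59 and that of Atf3 between -1.25 and -1.17. The small ratios moved by more than 1.5 times, between 0.015 and 0.10 for Fosb, between -0.12 and -0.034 for Junb and between -0.16 and -0.073 for Jund. Fosb left its counting interval in 5 of the 8, and Fos, Jun, Junb and Jund left theirs in 4. The sign of Batf, which lies at 0 within its interval, turned in 5 of the 8.

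**Figure D5:**
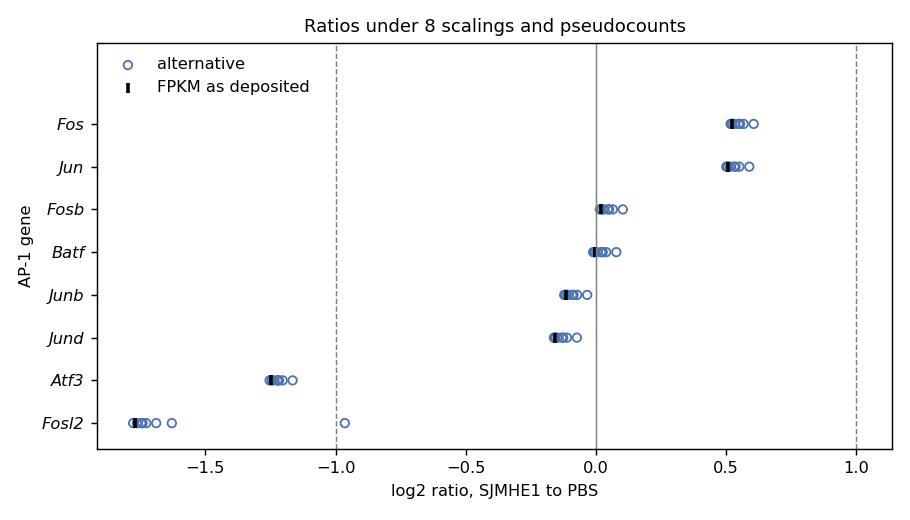
Log2 ratio, SJMHE1 to PBS, of each AP-1 gene from the deposited FPKM (black bars) and under 8 other scalings and pseudocounts (open circles), with dashed lines at 1 in either direction. Fosl2 reaches -0.96 with a pseudocount of 1, and no other gene crosses a dashed line.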

How the data were processed

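RNA of sorted spleen B cells was depleted of rRNA and sequenced, with 3 mice mixed per library. The authors deposited 1 table with whole-number counts and with FPKM values, rounded to 2 decimals, per gene. The submitters' processing notes name bcl2fastq 2.0, HISAT2, StringTie, DESeq2 and limma and the build mm10, and the counting tool and strand setting are not given in the sources used here. The names of 2 further value columns match no sample, so they were not used, and comparisons with the Control library were not made.

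With 1 library per group no test was possible. The measure was the log2 ratio of FPKM, SJMHE1 to PBS, without a pseudocount, with a limit of 1. Genes were kept at 1 FPKM or more in a library (0.1 for gene lists) if above 0 in both. Counting intervals (95%, exact Clopper-Pearson) cover counting error only. The members and the 16 other lists were chosen with earlier results of these data known, and the TGACGT core was added after the promoter letters were seen. Genes named are the members and, per list, those past the limit (at most 4 each way) and the 2 most abundant, with Srf, Jdp2, Batf3 and Egr1 added after their values were seen. Some genes of the lists are not reported here. Of the members, 7 have the same coordinates in GENCODE M21. Alternatives were pseudocounts of 0.1 and 1, other filters, other scalings (including edgeR 4.0.16 TMM factors on the counts), protein-coding genes and, for the members' shares, counts in place of FPKM. The code was tested on simulated libraries. Python 3.11.15, numpy 2.4.6, pandas 2.3.3, scipy 1.17.1, matplotlib 3.10.9 and R 4.3.3 were used.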

Additional observations from a re-analysis of the deposited data

How the results depend on the processing

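No paired analysis was possible because there is only 1 library for each group, so no replicate could be left out either, and comparisons with the Control library were not run. The causes of the changes were not tested except where the setting itself shows them. Of the members, 2 were past the limit in the PBS direction. Only 1 (Atf3) was left after a pseudocount of 1 was added, after both libraries were required to reach 1 FPKM, or after a library was required to reach 5 FPKM, since these settings shrink or drop the low Fosl2. A limit of 0.5 brought 2 members, Fos and Jun, past it in the SJMHE1 direction, where 0 were past 1. The counting interval of Jun includes 0.5. The median of the members, -0.061, turned to 0.022 after rescaling to equal sums, which adds 0.083 to every ratio, and was -0.030 without the 50 most abundant genes, -0.036 under TMM and -0.016 under median-of-ratios scaling. Over all genes, the 302 higher and 444 lower became 100 and 146 (pseudocount of 1), 1367 and 2018 (unfiltered), 101 and 151 (both libraries at 1 FPKM or more), 52 and 93 (a library at 5 FPKM or more) and 89 and 171 (protein-coding genes). Under the other settings these numbers stayed within 1.5 times. Depth limits Fosl1, Batf3, Fasl, Hlf, Mapk13 and Timp1, which had few counts.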
